A study of Mus musculus with 4 samples.

Results

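The nonclustered delta protocadherins examined here were Pcdh1, Pcdh7, Pcdh8, Pcdh9, Pcdh10, Pcdh17, Pcdh18 and Pcdh20, 8 of 21924 protein-coding genes. A site, meaning a region of accessible chromatin in the deposited ATAC-Seq table, was assigned to a member if it overlapped the gene body or lay no more than 100 kb from its transcription start site (TSS). This gave 55 of 82325 sites, 12 for Pcdh9 and 43 for the 7 other genes. The family was selected on earlier results of these libraries, in which the sites around Pcdh9 were low in 1 of the HAT1-null lines. The contrast of HAT1-null with wild type at these genes is therefore given as a description, without a test of the family.

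Delta protocadherins are single-pass membrane proteins of the cadherin superfamily that mediate weak adhesion between like cells and sorting of cells during development, and they are best known from the nervous system. Pcdh1, Pcdh7 and Pcdh9 belong to the delta-1 subgroup, whose tails carry a motif that binds protein phosphatase 1, and Pcdh8, Pcdh10, Pcdh17 and Pcdh18 belong to delta-2, several members of which recruit the actin-regulating WAVE complex. Pcdh20 is a more distant relative. Unlike the clustered protocadherins, each is a separate gene with its own promoter, and several lie in gene-poor DNA.

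ATAC-Seq uses the Tn5 transposase to cut accessible DNA, so that reads accumulate over open sites. The cells were mouse embryonic fibroblasts (MEFs) of C57bl6 background, immortalized with the SV40 T antigen and grown in DMEM with serum. The wild-type group (HAT1+/+, WT) was 2 lines, and the null group (HAT1−/−, KO) was 2 lines that lack HAT1, the acetyltransferase of newly made histone H4, so that all 4 libraries came from transformed cells and each genotype was represented by 2 lines. Replicates are numbered in accession order, which pairs nothing across genotypes, and the sources used here do not give whether a line is 1 clone.

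Values are normalized counts, read counts per site divided by a factor for each library and rounded. Library medians lay between 51 and 53, and sites held about 9430000 and 11420000 reads in the WT libraries against 7830000 and 5650000 in KO replicates 1 and 2. The fibroblast label was checked at promoters: 13 of 13 fibroblast marker genes had a site within 3 kb of a TSS. Their summed values ran from 5401 to 6587 over 33 sites, although Dcn held only 9 to 30. Such a site was found for 0 of 4 muscle genes and 1 of 4 blood genes. The latter was Cd68 (152 to 215), whereas Ptprc, Spi1 and Lyz2 had none. Neural (5 of 6), endothelial (4 of 4) and epithelial (4 of 6) marker genes also had promoter sites, with summed values of 610 to 746, 226 to 349 and 206 to 367, and their part in the results was not tested. The lists differ in their numbers of genes and sites, so their sums are not on the same scale.

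The promoters of the 5 members whose promoter values are set side by side below are shown first, as the 250 bases before the TSS from the RefSeq promoter table of GRCm38.p6 (mm10), 5′ to 3′ on the strand of the gene. The RefSeq TSS of Pcdh18 is 9 bases from that of GENCODE, and the others shown are the same. They lie at chr14:93890680-93890929 on the minus strand (Pcdh9), chr14:84443313-84443562 on the plus strand (Pcdh17), chr3:45378148-45378397 on the plus strand (Pcdh10), chr3:49757317-49757566 on the minus strand (Pcdh18) and chr14:88471397-88471646 on the minus strand (Pcdh20). Capitals mark a CCAAT box (CCAAT) or a GC box (GGGCGG), each searched on both strands.
Pcdh9 promoter: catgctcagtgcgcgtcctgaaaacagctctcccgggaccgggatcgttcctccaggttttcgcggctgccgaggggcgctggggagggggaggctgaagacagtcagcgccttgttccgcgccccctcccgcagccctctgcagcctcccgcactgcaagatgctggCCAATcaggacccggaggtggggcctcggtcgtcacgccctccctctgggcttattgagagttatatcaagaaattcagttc
Pcdh17 promoter: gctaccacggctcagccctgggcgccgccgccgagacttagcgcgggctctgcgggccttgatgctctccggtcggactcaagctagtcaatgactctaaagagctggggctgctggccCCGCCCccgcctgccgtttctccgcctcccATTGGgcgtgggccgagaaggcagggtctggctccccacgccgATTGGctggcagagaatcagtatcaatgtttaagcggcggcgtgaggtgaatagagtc
Pcdh10 promoter: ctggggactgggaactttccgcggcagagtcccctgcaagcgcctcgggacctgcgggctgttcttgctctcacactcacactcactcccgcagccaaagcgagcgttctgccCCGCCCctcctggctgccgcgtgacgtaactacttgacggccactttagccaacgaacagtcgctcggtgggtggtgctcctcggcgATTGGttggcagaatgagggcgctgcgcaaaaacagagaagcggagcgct
Pcdh18 promoter: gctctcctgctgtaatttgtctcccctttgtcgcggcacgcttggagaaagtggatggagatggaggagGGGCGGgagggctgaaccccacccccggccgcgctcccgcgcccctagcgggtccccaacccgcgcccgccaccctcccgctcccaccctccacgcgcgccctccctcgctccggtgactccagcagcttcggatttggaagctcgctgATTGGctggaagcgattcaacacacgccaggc
Pcdh20 promoter: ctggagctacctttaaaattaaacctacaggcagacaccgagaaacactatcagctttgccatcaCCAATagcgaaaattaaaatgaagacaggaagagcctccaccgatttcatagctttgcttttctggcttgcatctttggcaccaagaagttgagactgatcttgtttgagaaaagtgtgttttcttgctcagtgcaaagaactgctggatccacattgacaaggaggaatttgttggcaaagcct

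In the 300-base table windows, which run 50 bases past the TSS, Pcdh17, Pcdh10 and Pcdh18 held 26, 24 and 23 CpG dinucleotides, Pcdh9 held 18 and Pcdh20 held 4, against a median of 7 over 27025 mouse promoters. Pcdh8 and Pcdh7 held 14 and 11, and Pcdh1 was not in the table. A CCAAT box was found in 6 of the 7 windows, all but that of Pcdh7, and in 37.9% of all promoters, while a GC box was found in those of Pcdh10, Pcdh17 and Pcdh18 and in 35.9% of all. The TATA box letters (TATAAA) were found only for Pcdh8, and in 14.2% of all promoters. An ATAC-Seq site overlapped each of these windows except that of Pcdh20, whose promoter site began 130 bp away inside the gene.

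Pcdh9, an adhesion protein of the delta-1 subgroup expressed in brain, occupied 877.3 kb of chromosome 14 (93013410 to 93890679, minus strand), and all 12 of its sites lay at the promoter or in introns. The promoter site (93890455 to 93891302, across the TSS) had 214 and 190 normalized counts in WT replicates 1 and 2, and 6 and 256 in KO replicates 1 and 2. KO replicate 1 was thus at 2.73% of the mean of the other 3 libraries, whereas KO replicate 2 was above both WT libraries, and the genotypes overlapped. In KO replicate 1, 6 normalized counts stand for about 5.58 reads.

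The 11 intronic sites of Pcdh9, from 131.3 to 833.6 kb into the gene, lay between 0 and 5 in KO replicate 1 and between 6 and 83 in the other libraries. The strongest of them (93062256 to 93062771) had 46 and 80 in WT, and 1 and 62 in KO replicates 1 and 2. At the next (93288206 to 93288784) the values were 20 and 61 in WT, and 1 and 83 in KO replicates 1 and 2. KO replicate 1 was the lowest library at 12 of 12 sites of Pcdh9, and it was the lowest at 24.8% of all 82325 sites.

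The other intronic sites among the 5 strongest of the gene were also lowest in KO replicate 1. At 93199676 to 93200262 the values were 27 and 67 in WT, and 1 and 59 in KO replicates 1 and 2, and at 93070073 to 93070478 they were 41 and 44 in WT, and 5 and 30 in KO replicates 1 and 2. At 9 of the 12 sites KO replicate 1 held 0 or 1 normalized count, against 465 such sites in that library as a whole, and no site of any other member was that low in any library. A value of 0 there allows up to 3.23 normalized counts, the equivalent of 3 reads, so the low intronic values are at or near the limit of what this depth can show. KO replicate 2 was above both WT libraries at 7 sites, below both at 1 (93070073 to 93070478) and between or equal to them at 4.

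**Figure D1:**
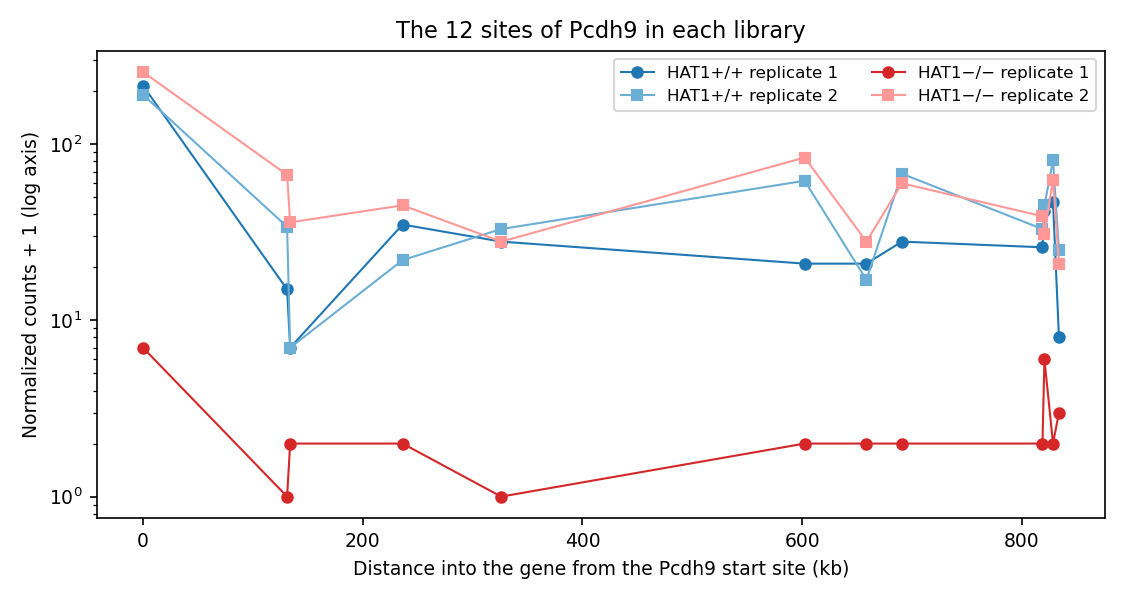
Normalized counts plus 1 (log axis) at the 12 sites of Pcdh9 in each of the 4 libraries, against the distance into the gene from its start site (kb). The points of KO replicate 1 (HAT1−/− replicate 1, dark red) lie below all the others at every site, and those of KO replicate 2 (pink) lie among or above the WT points (blue) at all sites but 1.

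The intronic site at 93288206 to 93288784 is shown in part because it holds a match to the AP-1 pattern, the more frequent of the 2 motifs searched in the distal sites of the family. In this pattern, TGANTCA, N stands for any base, and it is T in the match shown. The 200 bases at chr14:93288218-93288417 of GRCm38.p6, read from the genome on the minus strand (that of the gene), hold 1 match to TGANTCA, in capitals.
Pcdh9 intron site: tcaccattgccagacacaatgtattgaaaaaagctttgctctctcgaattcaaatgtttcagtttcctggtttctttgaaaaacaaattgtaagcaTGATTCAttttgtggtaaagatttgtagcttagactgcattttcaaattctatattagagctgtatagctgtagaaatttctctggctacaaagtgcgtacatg

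AP-1 is the dimer of Fos and Jun proteins. TGANTCA, searched on both strands, was present in 8 of 11 Pcdh9 sites away from its promoter (72.7%) and in 16 of 28 such sites of the other members (57.1%), against 51.6% of 53195 sites away from any TSS. Some of those 28 lay at promoters of other genes, as did the Pcdh9 site at 93199676 to 93200262 (Gm17922). The TEAD motif GGAATG was present in 4 of 11 and 10 of 28 sites, against 35.7% of all. Among member promoter sites AP-1 was present in 1 of 16. The distal sites of Pcdh9 had a median GC content of 38.8%, those of the other members 41.6% and all distal sites 46.0%, so the shares are a description of sequences of unequal composition and length.

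Pcdh20, the second gene of chromosome 14 described here (88464743 to 88471396, minus strand), was low in both KO libraries. Its promoter site (88470825 to 88471217) had 42 and 38 normalized counts in WT against 4 and 3 in KO replicates 1 and 2. The site 41.8 kb downstream of the TSS (88429301 to 88429897) had 78 and 62 in WT against 4 and 20 in KO. At the strongest site, 76.2 kb downstream of the TSS (88394992 to 88395470), the values were 118 and 149 against 31 and 69. Both KO libraries were below both WT libraries at all 3 sites, as they were at 14.3% of all sites, and KO replicate 1 was again the lowest library at 2 of them. The promoter value of 3 in KO replicate 2 is under the 4.52 normalized counts that 3 reads stand for in that library.

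Pcdh17, a delta-2 member known from axon growth and synapse formation, had a single site, at its promoter (chromosome 14, 84443182 to 84443749). It had 178 and 54 normalized counts in WT, and 20 and 220 in KO replicates 1 and 2. KO replicate 1 was the lowest library and KO replicate 2 the highest, with the WT libraries 3.30-fold apart between them.

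Pcdh10, a delta-2 member that binds the WAVE complex subunit Nap1, lay on chromosome 3 (45378398 to 45435623, plus strand) and had the same order of KO libraries as Pcdh17. Its site at the TSS (45378112 to 45378532) had 122 and 109 in WT, and 65 and 211 in KO replicates 1 and 2. The sites 1.1 and 2.4 kb upstream had 37 and 26, and 42 and 22, in WT, 17 and 19 in KO replicate 1, and 71 and 71 in the other KO line. At the site 34.2 kb upstream (45344038 to 45344377) KO replicate 2 reached 47 normalized counts, whereas WT had 4 and 5 and KO replicate 1 had 3. At all 4 sites KO replicate 1 was the lowest library and KO replicate 2 the highest, so the KO lines lay on opposite sides of WT.

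Pcdh18, the other member on chromosome 3 (49743296 to 49757325, minus strand), differed little among libraries at its promoter. The promoter site (49756048 to 49757615) had 253 and 267 in WT and 264 and 286 in KO. Its 5 distal sites, from 49.7 to 94.0 kb from the TSS, held 16 to 110 normalized counts, and KO replicate 2 was the highest library at 5 of the 6 sites.

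**Figure D2:**
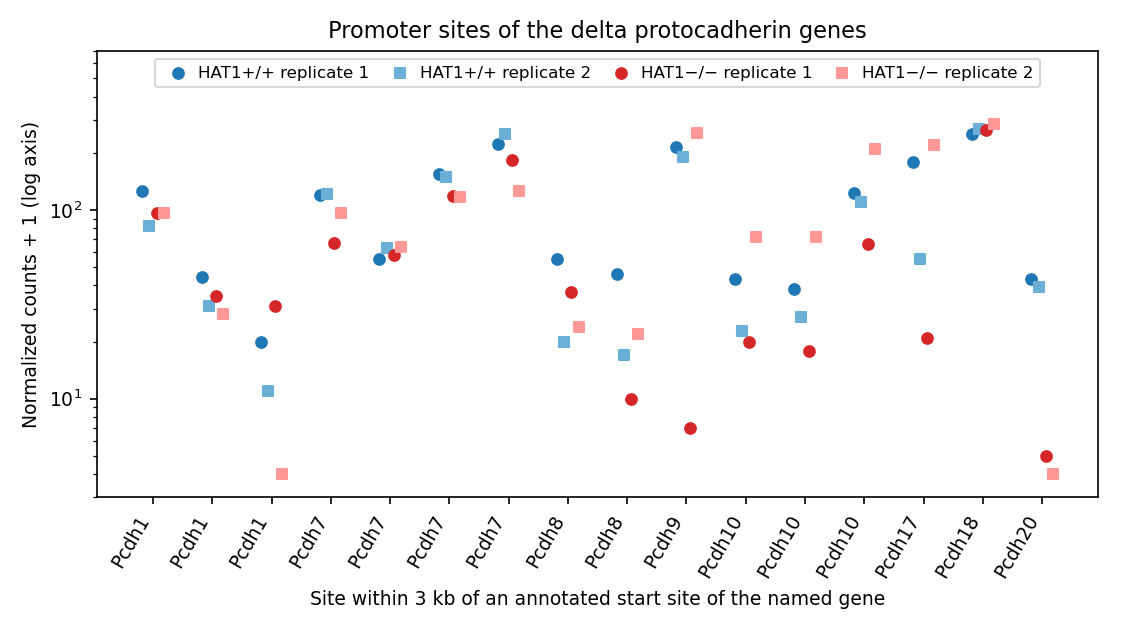
Normalized counts plus 1 (log axis) in each library at the 16 sites within 3 kb of an annotated start site of a member. KO replicate 1 (dark red circles) stands far under the other libraries at Pcdh9 (6 against 190 to 256), both KO libraries stand under both WT libraries at Pcdh20, and the libraries nearly coincide at Pcdh18.

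Pcdh7, a delta-1 member whose tail binds the phosphatase inhibitor Set, occupied 415.3 kb of chromosome 5 (57717967 to 58133230, plus strand). The site across its TSS (57717917 to 57718646) had 224 and 251 in WT against 183 and 126 in KO. The promoter sites 0.6, 1.2 and 2.0 kb upstream had 155 and 149, 54 and 62, and 120 and 121 in WT against 118 and 117, 57 and 63, and 66 and 96 in KO. Both KO libraries were below both WT libraries at 5 of its 13 sites, and at 14.3% of all sites. Its 9 intronic sites held from 3 to 150 normalized counts in KO replicate 1 and from 12 to 207 in the other libraries. The lowest of them in KO replicate 1 had 4 and 3, which are 23.1% and 17.3% of the mean of the other libraries, and the remaining 7 had 27 or more.

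Pcdh8, an activity-regulated adhesion protein that signals through the kinase Taok2, had 2 sites, both at its promoter on chromosome 14 (gene at 79766775 to 79771312). They had 54 and 19, and 45 and 16, in WT against 36 and 23, and 9 and 21, in KO. WT replicate 1 was the highest library at both, and the genotypes overlapped.

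Pcdh1, a delta-1 member expressed in airway epithelium that binds Smad3, had the most sites, 14, and lay in the most gene-rich surroundings, with 26 coding genes starting in the 1 Mb around its TSS, itself included, against 1 for 6 of the other 7 genes. Its promoter sites had 125 and 81, 43 and 30, and 19 and 10 in WT against 96 and 95, 34 and 27, and 30 and 3 in KO. Its strongest site, 84.8 kb upstream and at the start of another gene, Rnf14, had 481 and 482 in WT and 508 and 462 in KO. In all, 3 of its flanking sites lay within 3 kb of the TSS of another gene. Both KO libraries were below both WT libraries at 1 of the 14 sites (14.3% of all sites), and the fitted KO to WT log2 fold changes ran from -0.44 to 0.28.

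For each library, the level of a gene was taken as the mean over its sites of log2(normalized counts + 1). Pcdh9 stood at 4.72 and 5.22 in WT, and 1.16 and 5.60 in KO replicates 1 and 2. The KO mean was 1.58 lower than the WT mean (KO minus WT -1.58, SE 2.23, n = 2 lines each), a difference smaller than its error because the KO lines were 4.44 apart. KO replicate 1 alone was at -3.80 relative to the WT mean and KO replicate 2 at 0.64. The sum over the 12 sites was 481 and 606 normalized counts in WT, and 20 and 747 in KO replicates 1 and 2, so that KO replicate 1 held 3.27% of the mean of the other libraries.

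The same level fell between 6.16 and 6.21 in WT and was 3.21 and 4.17 in KO for Pcdh20, a difference of -2.49 (SE 0.48). Pcdh17 was at 7.48 and 5.78 in WT and 4.39 and 7.79 in KO, and Pcdh10 at 4.98 and 4.66 in WT and 4.13 and 6.41 in KO, so both overlapped between genotypes. KO minus WT was -0.16 (SE 0.28) for Pcdh1, -0.40 (SE 0.20) for Pcdh7, -0.53 (SE 0.74) for Pcdh8 and 0.31 (SE 0.19) for Pcdh18. With 2 lines of each genotype, no permutation test of a single value can give a p below 0.333.

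Pcdh9 was then set beside the other 7 genes within each library. Its mean level minus theirs was -1.31 and -0.32 in WT, and -3.65 and -0.19 in KO replicates 1 and 2, and counted from the lowest of the 8 it ranked 1, 3, 1 and 4. In KO replicate 1 the next lowest gene was Pcdh20 at 3.21. Per kilobase of site, which allows for sites of different length, Pcdh9 held 94.9 and 120 normalized counts in WT, and 3.95 and 147 in KO replicates 1 and 2, with the same ranks. The 7 other genes held 26.5 to 243 per kilobase in KO replicate 1. Only the low place in KO replicate 1 kept its sign under every summary tried. With only sites of higher signal Pcdh9 was above the other genes by 0.72 and 0.80 in WT and by 1.03 in KO replicate 2. That filter left Pcdh9 with its promoter site alone. With log2 of summed values Pcdh9 was above them by 0.41, 1.22 and 1.26 in the same libraries.

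**Figure D3:**
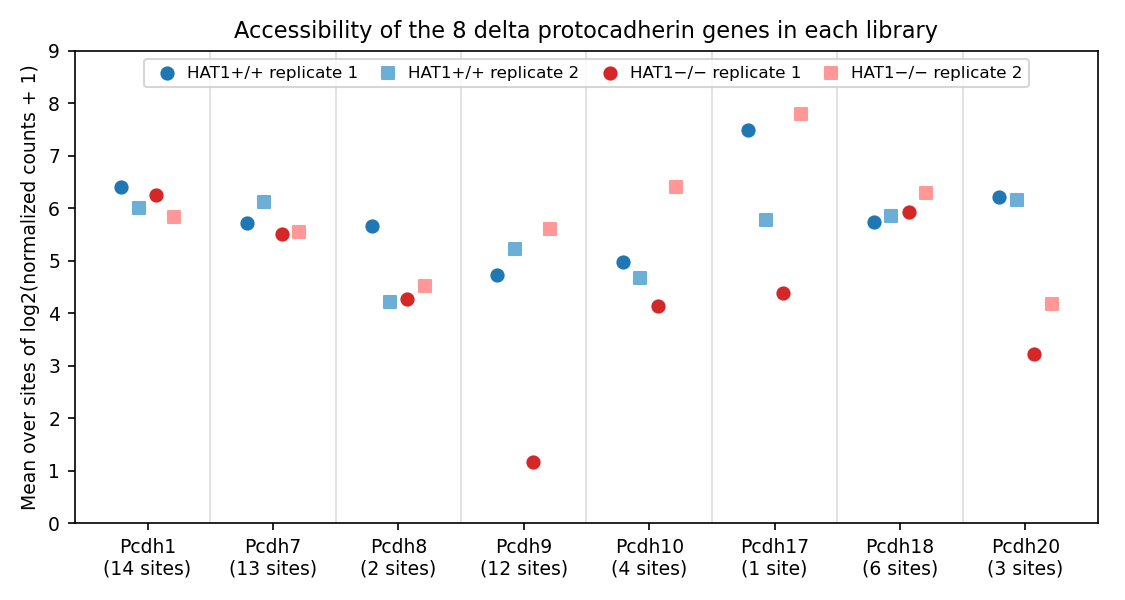
Mean over sites of log2(normalized counts + 1) for each of the 8 genes (number of sites in brackets) in the 4 libraries. For Pcdh9, KO replicate 1 is at 1.16 and the other libraries at 4.72 to 5.60; Pcdh20 is lower in both KO libraries, and Pcdh10 and Pcdh17 have KO libraries on either side of WT.

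Across 16971 coding genes with at least 5 sites, assigned in the same way, the level in KO replicate 1 minus the mean of the other libraries had a median of 0.03, with 5% of genes below -0.45. Pcdh9 was at -4.02, the lowest of all, and also had the widest range over the 4 libraries. The next were Ankfn1 (-3.37) and Atp8a1 (-3.35). Of the other members with at least 5 sites, Pcdh7 was at -0.30, Pcdh18 at -0.04 and Pcdh1 at 0.17, all within the central 90% of genes. This place of Pcdh9 is a property the family was selected on and is no independent result.

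**Figure D4:**
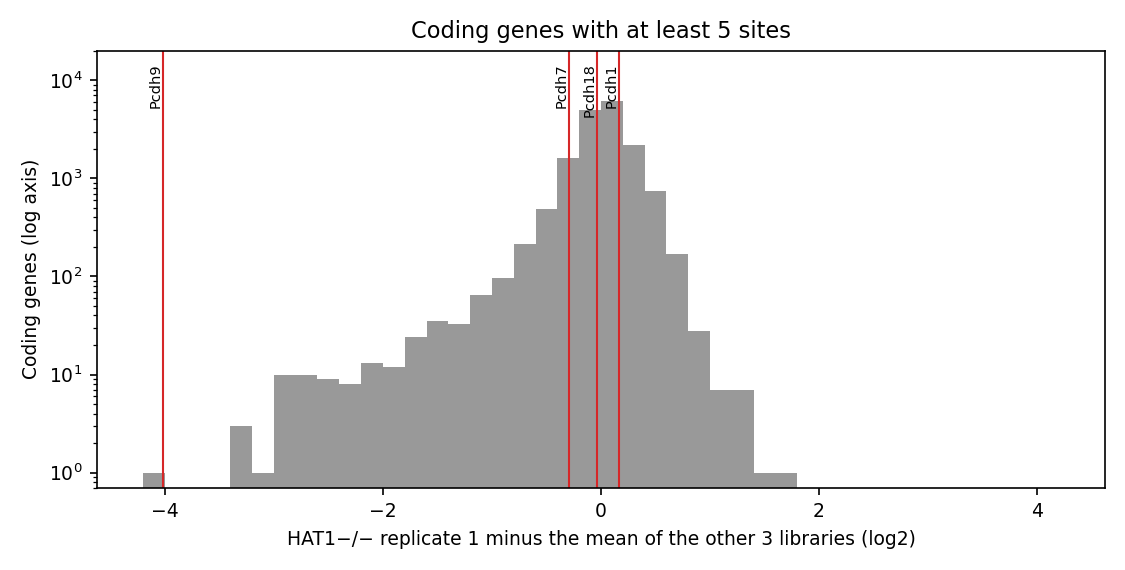
Number of coding genes (log axis) by the level in KO replicate 1 minus the mean of the other 3 libraries (log2), for the 16971 genes with at least 5 sites. Red lines mark the 4 members with that many sites, and Pcdh9 at -4.02 stands at the far left end.

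The genes whose library pattern was closest to that of Pcdh9, by the Euclidean distance between the 4 centred levels, were C1qtnf7 (0.69), Peg3 and Zim1 (0.96 each), Ankfn1 (0.97) and Fbxl7 (1.01). C1qtnf7 stood at 4.68 and 5.07 in WT, and 1.89 and 5.63 in KO replicates 1 and 2. Peg3 and Zim1 are neighbouring imprinted genes that shared the same 6 sites, at 5.96 and 5.98 in WT, and 3.16 and 6.48 in KO replicates 1 and 2. None of them lies on chromosome 14.

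The low values of KO replicate 1 reached past Pcdh9 on both sides. In a run of 20 consecutive sites over 4.67 Mb (91849206 to 96519677), KO replicate 1 held, at each site, at most 25% of what the other libraries held on average. The run included all 12 sites of Pcdh9 and 8 others, and its sums were 1017 and 833 in WT, and 67 and 1029 in KO replicates 1 and 2. At the 8 others the WT libraries also differed, with log2 ratios of replicate 1 to replicate 2 from -1.42 to 4.06. The highest ratio was at 92009324 to 92009534, with 49 and 2 in WT, and 0 and 6 in KO replicates 1 and 2. Low values outside Pcdh9 were thus not limited to KO replicate 1. KO replicate 2 was below both WT libraries at 2 of the 20 sites. Counting runs of any length, single sites included, KO replicate 1 had 1844 genome-wide. KO replicate 2 had 959, WT replicate 2 had 647 and WT replicate 1 had 372. In KO replicate 1, a run on chromosome 4 was longer in sites (22) and one on chromosome 8 as long (20). The longest were 15 sites in KO replicate 2, 11 in WT replicate 2 and 4 in WT replicate 1. In bulk libraries a site that is open in fewer cells, less open in each cell or present in fewer copies gives fewer reads, and these cannot be told apart in the values.

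Of the 2 other coding genes within 3 Mb of Pcdh9, 4921530L21Rik had no site and Klhl1, an actin-binding Kelch protein of neurons, had 3. Klhl1 stood at 6.52 and 4.75 in WT, and 3.43 and 6.09 in KO replicates 1 and 2. Its 3 sites are the last 3 of the run described above, so its low level in KO replicate 1 restates that run. At the 28 sites outside the run, up to 5.50 Mb from the Pcdh9 start site and including those of Pcdh20, the log2 ratio of KO replicate 1 to the others had a median of -1.33 and ran from -4.36 to -0.21.

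**Figure D5:**
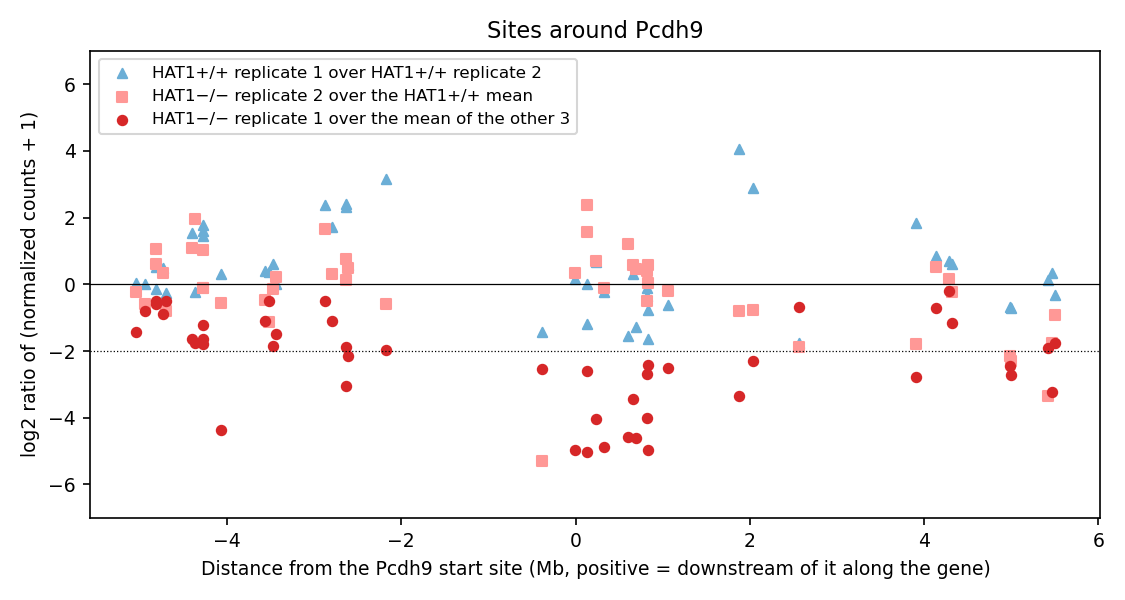
Log2 ratio of (normalized counts + 1) at 48 sites against the distance from the Pcdh9 start site (Mb, positive in the direction of transcription), for KO replicate 1 over the mean of the other libraries (red circles), KO replicate 2 over the WT mean (pink squares) and WT replicate 1 over WT replicate 2 (blue triangles). The dotted line is at -2, and all 48 red circles are below 0, with the lowest, at -5.02, in Pcdh9.

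HAT1-dependent accessibility domains were described by the study in primary MEFs, from averages of its own log2 fold changes in sliding windows, with neighbouring windows joined. The study also repeated its ATAC-Seq in immortalized MEFs and reported closely similar domain patterns. Here only an average over 25 consecutive sites was taken, of log2(normalized counts + 1) differences in the immortalized lines, and was read against a cutoff of -0.58, so no domain was called. Centred on the site nearest each TSS, the average was -1.39 at Pcdh9 and -1.09 at Pcdh20. By library, it was -2.89 and 0.11 for KO replicates 1 and 2 at Pcdh9, and -1.58 and -0.59 at Pcdh20. The averages at Pcdh1 (-0.17), Pcdh7 (-0.48), Pcdh8 (-0.50), Pcdh10 (-0.39), Pcdh17 (-0.47) and Pcdh18 (-0.14) were above the cutoff. The KO lines gave -0.98 and 0.70 at Pcdh18, and -1.18 and 0.40 at Pcdh10. Most sites of the Pcdh9 window lay in the run described above, so its average restates the low values on which the family was selected. Windows of neighbouring members share sites: that of Pcdh20 reached into the same run, up to the 2 sites nearest the 3′ end of Pcdh9. Those of Pcdh8 and Pcdh17 overlapped.

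In the fit over all sites (limma on log2(normalized counts + 1)), a site was called at an unadjusted p under 0.01 and a log2 fold change of at least 1 in either direction. Of all sites, 0.302% were called lower in KO and 0.0705% higher, and none had an adjusted p under 0.05, with 2579 at an unadjusted p under 0.05. Of the 55 member sites 2 were called, both lower and both of Pcdh20, the promoter site (log2 fold change -3.19, SE 0.66) and the site 41.8 kb downstream (-2.78, SE 0.72), and both had an adjusted p of 1 (limma, Benjamini-Hochberg over all sites). The first of these fitted fold changes rests on KO values of 4 and 3 normalized counts and the second on 4 and 20, and both depend on the pseudocount. Neither site was called when WT replicate 1 or WT replicate 2 was left out, and 8 member sites were called lower without KO replicate 2, compared with 0.666% of all sites. Of these 8, 5 were in Pcdh9 and restate the low values of KO replicate 1 on which the family was selected. None of the 12 sites of Pcdh9 was called with all libraries, and 10 had a log2 fold change of -1 or less, as had 4.84% of all sites. The median log2 fold change was -0.33 over the 55 member sites, -0.20 over the 43 without Pcdh9 and 0.01 over all sites.

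Both KO libraries were below both WT libraries at 10 of the 55 member sites, compared with 14.3% of all sites, and above both at 1, compared with 14.6%. The 10 were 5 sites of Pcdh7, 3 of Pcdh20, 1 of Pcdh1 and 1 of Pcdh9, and the 1 was at Pcdh18. Since the family was selected on this contrast, nothing is read from these counts.

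The X-linked relatives were a contrast in coverage. Pcdh19, a delta-2 member mutated in an epilepsy syndrome, had 11 sites, at 5.88 and 5.89 in WT and 5.95 and 6.14 in KO, and its site at the TSS (X chromosome, 133688460 to 133689241) had 201 in both WT libraries and 189 and 223 in KO. Pcdh11x, a delta-1 member, had no site. Promoter sites of the genes of the WAVE complex, which regulates actin downstream of delta-2 protocadherins, were present for 9 of 9 genes. None of their 14 sites was called, and their sums were 2733 and 2815 in WT and 2738 and 2804 in KO.

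Among 7 further binding partners (Cdh2, Taok2, Mapk14, Ppp1ca, Set, Smad3 and Fzd7), all had promoter sites, 18 in total, with sums of 4347 and 4139 in WT and 4304 and 4458 in KO. Of the 18, 1 was called lower in KO, compared with 0.302% of all sites. It was 1 of 6 promoter sites of Smad3, the transducer of TGF-beta signals that Pcdh1 binds (chromosome 9, 63745858 to 63746512). It had 165 and 197 normalized counts in WT against 86 and 80 in KO (log2 fold change -1.11, SE 0.25, adjusted p of 1 by limma). The 6 sites together summed to 1144 and 1156 in WT and 1088 and 1127 in KO. The median log2 fold change was 0.06 over these 18 sites, -0.03 over the 14 of the WAVE complex and 0.01 over all sites.

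The members also differed in their surroundings. GC content in 100 kb around the TSS was 36.0% at Pcdh9, 36.3% at Pcdh17, 36.5% at Pcdh10 and 36.9% at Pcdh20, and 39.6% at Pcdh7, 39.9% at Pcdh18, 45.1% at Pcdh8 and 49.6% at Pcdh1. In KO replicate 1 the first 4 of these genes had levels of 1.16, 4.39, 4.13 and 3.21 on the log2 scale, and the last 4 had 5.50, 5.92, 4.27 and 6.24. The groups overlapped in that library, as Pcdh17 (4.39) was above Pcdh8 (4.27). The Pcdh9 value restates the result on which the family was selected. In KO replicate 2 the first 4 had 5.60, 7.79, 6.41 and 4.17 and the last 4 had 5.55, 6.30, 4.52 and 5.83. The groups also overlapped there and in both WT libraries. Over only 8 genes, chosen with earlier results known, these values are a description.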

How the data were processed

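ATAC-Seq was performed on 4 libraries, 2 per HAT1 genotype. Per the labels and the study's methods, nuclei were treated with Tn5, reads were aligned to mm10 with BWA 0.7.12, peaks were called with MACS2 2.1.0 and differential occupancy was tested with DESeq2. The deposited table holds 1 value per library for each site, a score: the authors scaled the read counts of each library by 1 factor and rounded them to whole numbers. Read filtering and the handling of the Tn5 offset are not given in the sources used here, although an offset of a few bases would change counts over whole sites little. The table also holds the authors' log2 fold changes, p-values and adjusted p-values, which were not used.

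Depth was estimated from the whole numbers that the scaling leaves unused in the low values, so it is approximate, and limits based on it cover counting error only. It could not be settled whether reads or fragments were counted.

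Genes came from GENCODE on GRCm38 (mm10). A site within 3 kb of any annotated TSS of a gene was a promoter site. The main test was limma 3.58.1 with an intensity trend (R 4.3.3) on log2(value + 1) over all 82325 sites, with Benjamini-Hochberg adjustment, after a test on simulated data. The pseudocount makes fold changes of low sites too small. No site was filtered out. P-values and SEs of fitted sites rest on the spread between lines, moderated towards the intensity trend over all sites. Gene levels are means of log2(value + 1) over sites, with no test. Motifs and base composition were read from the genome and the RefSeq promoter table of GRCm38.p6. Python 3.11.15, numpy 2.4.6 and pandas 2.3.3 were used.

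The members and lists were chosen with earlier results of these data known. Sites named were those within 3 kb of a member's TSS, the strongest site of each member, each called member site and the 5 strongest sites of Pcdh9; other named sites were chosen after their values were seen. Alternatives were another pseudocount, other scalings, a filter on low sites, narrower site assignment, other gene summaries and leaving out each library.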

Additional observations from a re-analysis of the deposited data

How the results depend on the processing

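The KO minus WT level of Pcdh9 (-1.58) and its difference from that of the other members (-1.10) rested on KO replicate 1: without that library they were 0.64 and 0.62. Over the libraries left out in turn they ranged from -3.80 to 0.64 and from -2.83 to 0.62. Their sign was kept under every other setting run, but not their size: they were -0.80 and -0.44 with a pseudocount of 8, -1.02 and -0.66 with quantile normalization, -2.26 and -1.86 with only sites of higher signal, and -2.11 and -1.68 with summed values. The signal filter left only the promoter site of Pcdh9. The 307 sites called became 115 when only sites with higher signal were fitted, and ranged from 36 to 612 with 1 library left out. The 2 member sites called became 0 with the signal filter, because the filter removed both before the fit. Only 1 of the 2 lay in the gene body, and 1 in the body or within 20 kb of the TSS. These narrower assignments were counted without a new fit, so they do not test the calls. With 1 library left out, the member sites called ranged from 0 (without either WT replicate) to 8 (without KO replicate 2), and there was 1 without KO replicate 1.

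Within a library, Pcdh9 minus the other members changed sign in all but KO replicate 1. With only sites of higher signal, meaning the promoter site alone for Pcdh9, it was 0.72 and 0.80 in WT and 1.03 in KO replicate 2. With log2 of summed values it was 0.41, 1.22 and 1.26 in the same libraries. With 1 library left out, KO minus WT ranged from -0.37 to 0.043 for Pcdh1, -1.26 to 0.19 for Pcdh8, -0.69 to 1.59 for Pcdh10 and -2.24 to 1.16 for Pcdh17, so their signs are not fixed. That of Pcdh20 was -1.50 with the signal filter, which left only its site 76.2 kb downstream of the TSS. The causes were not tested. Pcdh8 had no site left under the signal filter. Levels per kilobase of site were added after the data had been seen. No paired analysis was possible because the labels give no replicate numbers. The titles of WT replicate 1 and KO replicate 2 share a line number whose meaning is not given, and 1 such pair allows no block. A lone library was assumed to vary like the other genotype. Depth limits KO replicate 2 most, where 3 reads stand for 4.52 normalized counts.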
